A study of Rattus norvegicus with 48 samples.

Results

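The 10 genes described here are parts of the circadian clock or sit directly under its control: Bmal1, Nfil3, Dbp, Tef, Per2, Per3, Cry2, Nr1d1, Bhlhe40 and Bhlhe41. They were chosen by name among the 7589 genes that the array annotation names, and each of the 10 was measured by exactly 1 probe set carrying that single symbol. The choice was made with earlier results of these data known. Counts of called clock genes beside the share of all probe sets therefore describe these 10 genes and are no independent test. Total RNA from the kidneys of male rats was hybridised to whole-transcript arrays. The labels do not explain the letters of the 4 strains (F, FL, L and LF), and they give an age of 12 weeks for the samples and 12 to 14 weeks in the protocol. Each strain has a day 0 group gavaged with vegetable oil, the carrier, and groups gavaged with indole-3-carbinol at a daily 100 mg per kg for 7 or 10 days. That makes 12 groups of 4 arrays, described in the series design as biological replicates, from 8 rats per group, and the number of rats behind each array is not given in the sources used here. All rats lived under a cycle of 12 hours of light and 12 of dark. The hour at which kidneys were taken is not given in the sources used here, nor how long the carrier was given. A difference in that hour and a difference in strain or treatment cannot be told apart here.

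The clock is a loop of transcription factors that turns over about once a day in nearly every cell. Bmal1 pairs with Clock and switches on Per and Cry genes, Nr1d1, Dbp, Tef and the Bhlhe genes through E-box sequences. Per and Cry proteins then block Bmal1 and Clock, Nr1d1 represses Bmal1 and Nfil3, and Nfil3 opposes Dbp and Tef at D-box sequences. In the kidney the loop sets daily rhythms in salt and water transport. In a kidney sampled over a day, Bmal1 therefore peaks at roughly the opposite time from Dbp, Tef, Nr1d1 and Per3, so their levels depend on the hour at which tissue is taken.

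Values are log2 signals, on which a difference of 1 is a doubling. Changes come from limma fitted to all 48 arrays and are given ± the standard error of the fit, with 4 arrays in each group. A call is an adjusted p under 0.05 (Benjamini and Hochberg over all 8797 probe sets), and beside each count of called clock genes stands the share of all probe sets called in the same comparison. The same day 0 arrays serve the day 7 and the day 10 comparison of a strain, so the 2 are not independent. They also serve the strain pairs at day 0 and the comparisons of responses between strains, so those are not separate findings. The design calls the arrays of a group biological replicates, but how many rats contributed to each array is unknown here. The p-values therefore measure the spread between these arrays, in which differences between rats and technical variation are not separated. Levels of different probes are not compared as amounts of RNA. In bulk kidney RNA, fewer cells of a type and less RNA per cell cannot be told apart.

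RefSeq promoters were found for 10 of 10 genes, as 300-base windows on GRCr8 that run from 250 bases before to 50 bases from the start site the table uses, which need not be the outermost start of the gene. The windows of 5 genes are printed below 5′ to 3′ because they hold a match to the E-box CACGTG, the D-box or the ROR element, described below. Matching letters are in capitals, and whether any factor binds them was not tested. Bmal1 lies at chr1:176766078-176766377 on the plus strand, Per2 at chr9:99496944-99497243 on the minus strand, and Tef at chr7:115206577-115206876 on the plus strand. Bhlhe40 lies at chr4:143174200-143174499 on the plus strand and Bhlhe41 at chr4:180569306-180569605 on the minus strand.
Bmal1: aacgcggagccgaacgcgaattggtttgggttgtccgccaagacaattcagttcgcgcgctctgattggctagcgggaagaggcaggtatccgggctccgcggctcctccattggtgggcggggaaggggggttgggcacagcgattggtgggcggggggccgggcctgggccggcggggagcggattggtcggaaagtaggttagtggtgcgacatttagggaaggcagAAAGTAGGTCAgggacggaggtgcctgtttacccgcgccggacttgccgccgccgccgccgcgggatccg
Per2: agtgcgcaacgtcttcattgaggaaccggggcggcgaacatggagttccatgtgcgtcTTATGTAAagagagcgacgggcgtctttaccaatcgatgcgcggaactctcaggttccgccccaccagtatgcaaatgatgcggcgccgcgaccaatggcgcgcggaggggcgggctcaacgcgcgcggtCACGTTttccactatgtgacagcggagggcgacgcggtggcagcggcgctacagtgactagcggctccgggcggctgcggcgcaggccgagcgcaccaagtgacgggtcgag
Tef: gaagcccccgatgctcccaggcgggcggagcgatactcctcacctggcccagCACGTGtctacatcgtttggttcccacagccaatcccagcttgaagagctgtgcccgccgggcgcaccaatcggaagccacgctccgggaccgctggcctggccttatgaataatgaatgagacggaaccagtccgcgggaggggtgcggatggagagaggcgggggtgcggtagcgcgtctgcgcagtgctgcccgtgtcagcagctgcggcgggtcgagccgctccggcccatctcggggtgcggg
Bhlhe40: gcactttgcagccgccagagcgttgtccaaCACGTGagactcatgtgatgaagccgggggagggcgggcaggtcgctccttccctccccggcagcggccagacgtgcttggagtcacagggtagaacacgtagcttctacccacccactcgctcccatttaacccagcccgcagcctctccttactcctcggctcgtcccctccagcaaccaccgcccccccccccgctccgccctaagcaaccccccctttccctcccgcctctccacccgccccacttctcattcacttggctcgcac
Bhlhe41: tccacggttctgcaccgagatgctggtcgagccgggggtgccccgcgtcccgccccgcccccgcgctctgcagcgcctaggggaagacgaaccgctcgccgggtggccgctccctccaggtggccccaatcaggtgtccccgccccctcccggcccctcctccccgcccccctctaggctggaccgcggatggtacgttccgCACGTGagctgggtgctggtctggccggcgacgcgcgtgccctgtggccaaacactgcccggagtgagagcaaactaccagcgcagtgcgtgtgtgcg

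The E-box CACGTG, to which Bmal1 and Clock bind, was searched on both strands and was found in Tef (starting at position -198, where -1 is the base before the start site), Bhlhe40 (-220) and Bhlhe41 (-48). It occurred in 6.42% of all 33465 promoter windows. The variant CACGTT was found in Per2 (-62), against 4.83% of all windows. It was also found in Nr1d1 (-174) and Cry2 (-212) on the strand opposite to the gene, so that their windows read AACGTG. The D-box TTATGTAA, bound by Dbp, Tef and Nfil3, was found in Per2 (-192), against 0.894% of windows, and the form TTACGTAA in none of the 10, against 0.12%. The ROR element, through which Nr1d1 represses and the ROR receptors activate, was found only in Bmal1 among the 10 (-20), against 0.356% of windows, and its last letters are AGGTCA, which 16.2% of windows hold. None of the motifs was found in the windows of Dbp, Per3 or Nfil3, which says only that these letters are not in these windows.

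**Figure D1:**
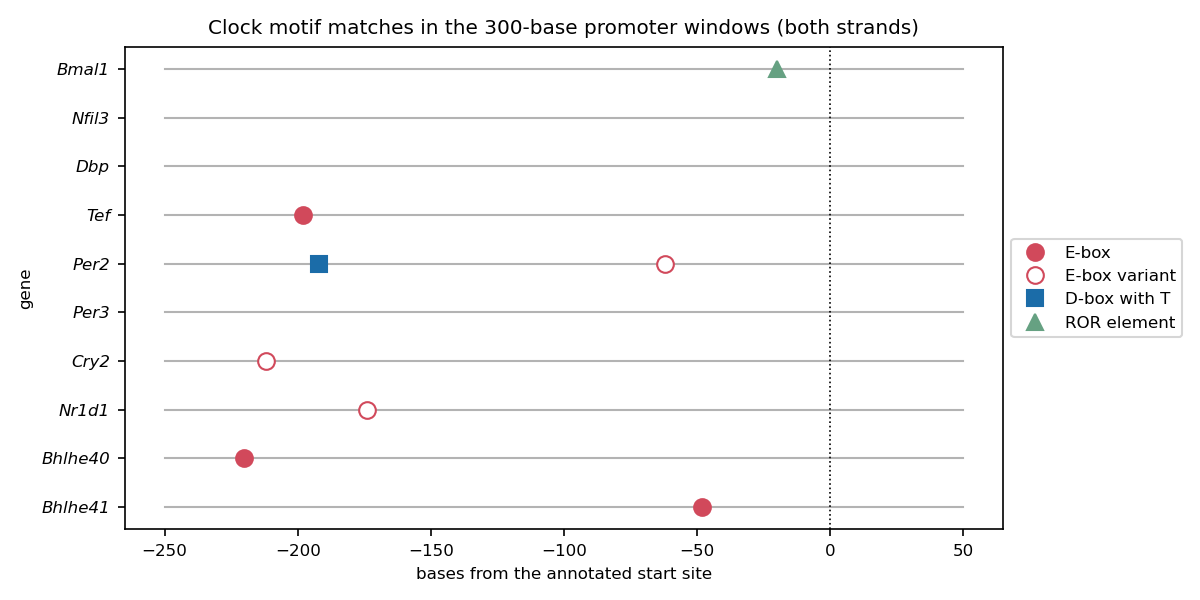
Positions of motif matches on either strand in the promoter windows of the 10 clock genes, in bases from the start site (x axis). Grey lines are the windows and the dotted line is the start site. The ROR element sits close to the start of Bmal1 and the D-box in the Per2 window, and 3 windows (Dbp, Per3, Nfil3) hold no match.

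The genes themselves lie at chr1:176766222-176864741 (Bmal1), chr17:12432376-12447605 (Nfil3), chr1:105312256-105317205 (Dbp), chr7:115197180-115221930 (Tef) and chr9:99454828-99497069 (Per2) on GRCr8. The other genes lie at chr5:166740914-166778243 (Per3), chr3:98830479-98860437 (Cry2), chr10:84224599-84231812 (Nr1d1), chr4:143174450-143180150 (Bhlhe40) and chr4:180565003-180569415 (Bhlhe41). Array medians lay between 5.66 and 6.06, precision is limited by having 4 arrays in a group, and arrays of 1 group correlated at 0.979 to 0.992. Of kidney markers, Umod of the loop of Henle read 12.53 to 13.02 and Slc34a1 of the proximal tubule 11.74 to 12.19 over the 48 arrays. Of genes looked up as markers of other tissues, Alb of liver read 2.68 to 3.26, Star of adrenal 3.95 to 4.43 and Acta1 of muscle 6.20 to 6.76. Cidec of fat read 6.59 to 7.98 and Slc4a1 of red blood cells 8.41 to 9.20. These are different probes, and kidney cells may make some of these genes themselves, so their levels give no measure of purity.

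**Figure D2:**
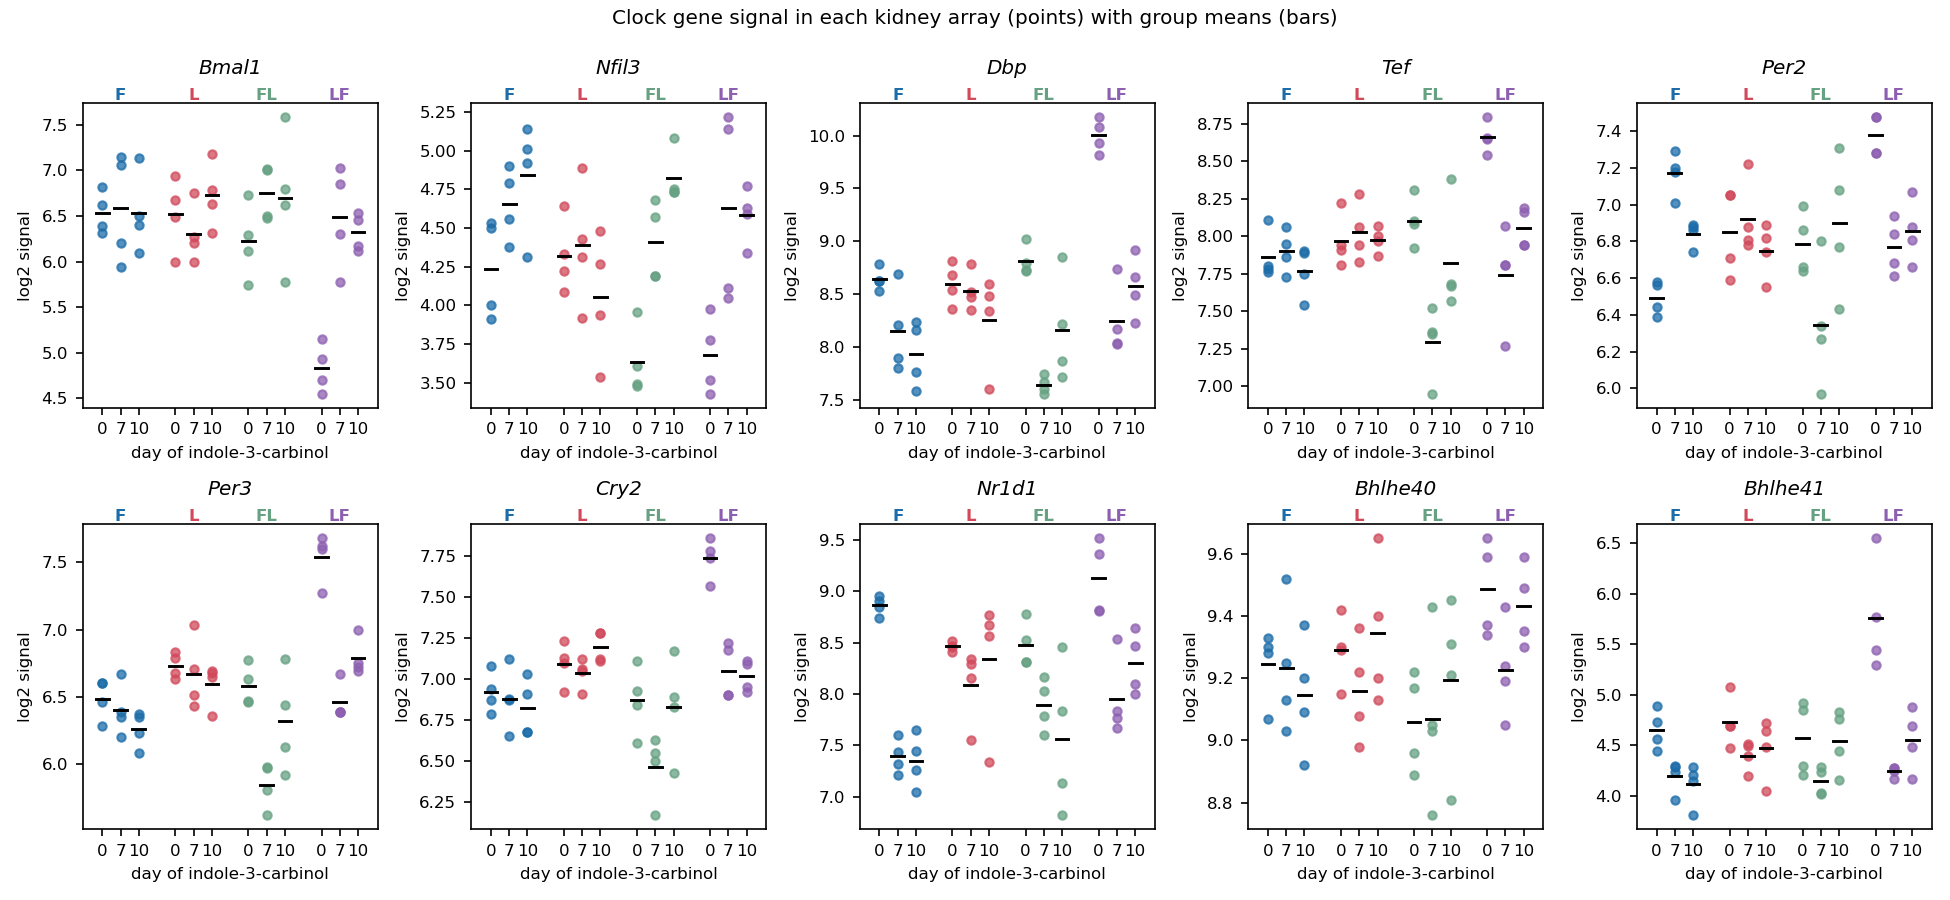
Log2 signal (y axis, separate scale for each gene) of the 10 clock genes on each of the 48 arrays by strain and day of indole-3-carbinol (x axis), with black bars at group means. The LF day 0 arrays stand below all other arrays for Bmal1 and above all others for Dbp, and the F arrays step down for Nr1d1 after day 0.

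The first question was whether the strains started from the same clock state. In the carrier kidneys the LF strain stood apart from the 3 others, with low Bmal1 and high Dbp, Tef, Per3, Cry2 and Bhlhe41, while no clock gene passed the test among F, L and FL. Bmal1, the activator of the loop, read 4.55, 4.70, 4.93 and 5.15 on the LF day 0 arrays. The lowest Bmal1 value on the 12 day 0 arrays of the other strains was 5.74, in FL, so the LF arrays lay clear of them. The day 0 values ran from 5.74 to 6.73 in FL, 5.99 to 6.94 in L and 6.31 to 6.82 in F. LF differed from L by -1.69 ± 0.29, a signal 3.23-fold lower (adjusted p = 0.0012), from F by -1.70 ± 0.29 (adjusted p = 0.000183), and FL stood 1.39 ± 0.29 above LF (adjusted p = 0.00282).

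Dbp, an activator that follows Bmal1 directly and serves as one of its clearest outputs, showed the opposite order. It read 9.82, 9.93, 10.08 and 10.18 in LF at day 0. In L it read 8.36 to 8.81, in F 8.53 to 8.79 and in FL 8.72 to 9.02, so no array of another strain reached the LF range. LF exceeded L by 1.41 ± 0.20, or 2.65-fold (adjusted p = 5.34e-05). Tef, which binds the same D-box, read 8.54, 8.65, 8.66 and 8.80 in LF and at most 8.31 in the other strains at day 0, and exceeded L by 0.69 ± 0.15 (adjusted p = 0.0135).

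Of the repressors of the loop, Per3, Cry2 and Bhlhe41 were high in the same LF kidneys against each other strain, Per2 against F and FL, and Nr1d1 and Bhlhe40 passed against none. Per3 read 7.27, 7.60, 7.62 and 7.68 in LF at day 0 and at most 6.83 elsewhere at day 0, and LF exceeded L by 0.81 ± 0.14 (adjusted p = 0.00104). Cry2, the partner of the Per proteins, read 7.57, 7.74, 7.78 and 7.86 against at most 7.23 elsewhere, a difference from L of 0.64 ± 0.12 (adjusted p = 0.00359). Bhlhe41, a repressor that competes for E-boxes, read 5.29, 5.44, 5.77 and 6.55 against at most 5.08 elsewhere, with LF above L by 1.03 ± 0.19 (adjusted p = 0.00359). Its LF arrays spread more widely than those of Dbp, with replicate 2 at the top. Per2 read 7.28, 7.28, 7.48 and 7.48 in LF and exceeded F by 0.89 ± 0.14 (adjusted p = 5.99e-05), and its excess over L of 0.53 ± 0.14 did not pass (adjusted p = 0.154).

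Against L, 6 of the 10 clock genes passed in LF at day 0, where 0.193% of all probe sets (17) did. The 4 arrays of the groups did not overlap for 9 of the 10, against 2.32% of all probe sets. Against F, 7 passed (2.11% of all called; 8 did not overlap, 7.8% of all), and 7 passed between FL and LF (3.07% called; 9 did not overlap, 9.39% of all). Nr1d1 did not pass in any of these, with 0.66 ± 0.26 over L (adjusted p = 0.758), 0.26 ± 0.26 over F and -0.65 ± 0.26 for FL against LF. Nfil3 stood at -0.64 ± 0.23 in LF against L (adjusted p = 0.615) and was as low in FL, whose arrays read 3.48, 3.49, 3.61 and 3.96, as in LF, whose arrays read 3.43, 3.52, 3.78 and 3.98. The difference of FL from LF was -0.04 with an interval of -0.50 to 0.42.

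Among the other strains at day 0 limma called no clock gene. None of the 10 passed in F against L (1.55% of all called; 1 clock gene at an unadjusted p under 0.05), FL against F (0.0682%; 2) or FL against L (1.59%; 1). Between F and L 3 of 10 did not overlap (5.29% of all probe sets), Per2 among them (F 6.39, 6.44, 6.56 and 6.58, L 6.59 or above), and F against L was -0.36 ± 0.14 (adjusted p = 0.364). No marker of another cell type passed between LF and L, F or FL at day 0. The Tef call against L ended without any 1 of 4 arrays (adjusted p up to 0.1), and against FL without any 1 of 5 (adjusted p up to 0.0992). Without replicate 2 of the LF day 0 group, 4 in place of 6 clock genes passed against L, and with only the compared groups in the fit 3 did.

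After 7 days of indole-3-carbinol Bmal1 and Nfil3 rose in LF kidneys, and Dbp, Bhlhe41, Nr1d1, Per3, Tef, Cry2 and Per2 fell. These changes are taken against the same LF day 0 arrays that stood apart above. Bmal1 read 5.78, 6.30, 6.85 and 7.03 at day 7 and 6.12, 6.17, 6.46 and 6.53 at day 10, all above the highest day 0 array at 5.15. The rise was 1.66 ± 0.29 at day 7, or 3.15-fold (adjusted p = 0.000585), and 1.49 ± 0.29 at day 10 (adjusted p = 0.00271). Nfil3, the repressor that counteracts Dbp, read 4.05, 4.11, 5.14 and 5.22 at day 7 and 4.34, 4.59, 4.63 and 4.77 at day 10. The day 7 arrays formed a high and a low pair, and both lay above the day 0 arrays. The high pair (replicates 1 and 2) had an SD over all probe sets of 2.46 and 2.44, the low pair 2.33 and 2.36. Nfil3 rose by 0.95 ± 0.23 (adjusted p = 0.0162) and 0.91 ± 0.23 (adjusted p = 0.0358). Both Nfil3 calls ended without any of several single arrays, with adjusted p up to 0.093 at day 7 (4 arrays) and 0.151 at day 10 (6 arrays). The day 7 call also ended without replicate number 1 (adjusted p = 0.125) or 2 (0.421) and with only the compared groups in the fit (0.166). The day 10 call ended without replicate number 1 (0.142), 2 (0.416) or 3 (0.207).

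Dbp read 8.03, 8.04, 8.17 and 8.74 in LF at day 7 and 8.23, 8.49, 8.66 and 8.92 at day 10, below every LF day 0 array. It fell by 1.76 ± 0.20 at day 7, which is 3.38-fold lower (adjusted p = 2.34e-07), and by 1.43 ± 0.20 at day 10 (adjusted p = 2.06e-05). Bhlhe41 read 4.17, 4.25, 4.28 and 4.28 at day 7, a spread smaller than in the other LF groups, and 4.17 to 4.88 at day 10. It fell by 1.52 ± 0.19 (adjusted p = 1.69e-06) and by 1.21 ± 0.19 (adjusted p = 0.000146). Bhlhe41 and Nfil3 were the dimmest of the 10 clock genes, with means over all arrays of 4.53 and 4.35. Only 34.0% and 32.2% of probe sets had a lower mean. Whether a low signal affects their spread or the size of their changes was not tested. Per3 read 6.39, 6.39, 6.39 and 6.67 at day 7, and fell by 1.08 ± 0.14 (adjusted p = 1.69e-06) and, at day 10, by 0.75 ± 0.14 (adjusted p = 0.000933). Tef read 7.27, 7.81, 7.81 and 8.07 at day 7, and fell by 0.92 ± 0.15 (adjusted p = 0.000132) and, at day 10, by 0.60 ± 0.15 (adjusted p = 0.0242), a call that ended without any 1 of 5 arrays (adjusted p up to 0.112).

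Cry2 in LF read 6.90, 6.90, 7.18 and 7.22 at day 7 and 6.92, 6.95, 7.09 and 7.11 at day 10, with all treated arrays under the day 0 arrays. It fell by 0.69 ± 0.12 (adjusted p = 0.000571) and by 0.72 ± 0.12 (adjusted p = 0.000308). Nr1d1, the haem-binding repressor of Bmal1, read 8.81, 8.82, 9.36 and 9.52 at day 0 and 7.67, 7.77, 7.84 and 8.54 at day 7. It fell by 1.17 ± 0.26 at day 7 (adjusted p = 0.00815) and stood at -0.82 ± 0.26 at day 10 (adjusted p = 0.165). Per2 read 6.61, 6.68, 6.84 and 6.94 at day 7, fell by 0.61 ± 0.14 (adjusted p = 0.0137), and stood at -0.53 ± 0.14 at day 10 (adjusted p = 0.0661). The Per2 call at day 10 appeared with array medians subtracted, a second quantile normalization, the array spread as covariate or array weights (adjusted p of 0.00612 to 0.00758).

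In LF, 9 of the 10 clock genes passed at day 7 (2.26% of all probe sets) and 9 did not overlap (8.73% of all). At day 10, 7 passed (0.887%) and 9 did not overlap (5.16%). Between day 10 and day 7 none of the 10 passed limma's threshold, 2 had an unadjusted p under 0.05, and 1.17% of all probe sets were called. Without replicate 2 of the LF day 0 group the day 7 count was 6, with Per2, Nr1d1 and Nfil3 no longer past the threshold. In the same kidneys markers of other cell types moved at day 7: Slc5a2 and Lrp2 of 4 proximal tubule markers, Calb1 of 4 distal markers, Emcn of 2 endothelial and Adgre1 of 2 white blood cell markers fell. The mean level of the white blood cell pair ran from 6.0 to 6.67 at day 0 and from 5.34 to 5.74 at day 7, and that of the proximal tubule markers from 11.19 to 11.37 and from 10.86 to 10.98. Their part in the clock gene changes was not tested. The array spread, the SD over all probe sets of an array, ran from 2.41 to 2.54 at day 0 and from 2.33 to 2.46 at day 7, and with it as covariate 9 clock genes passed. At day 10 Slc5a2 and Aqp2 were the markers that fell in LF.

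**Figure D3:**
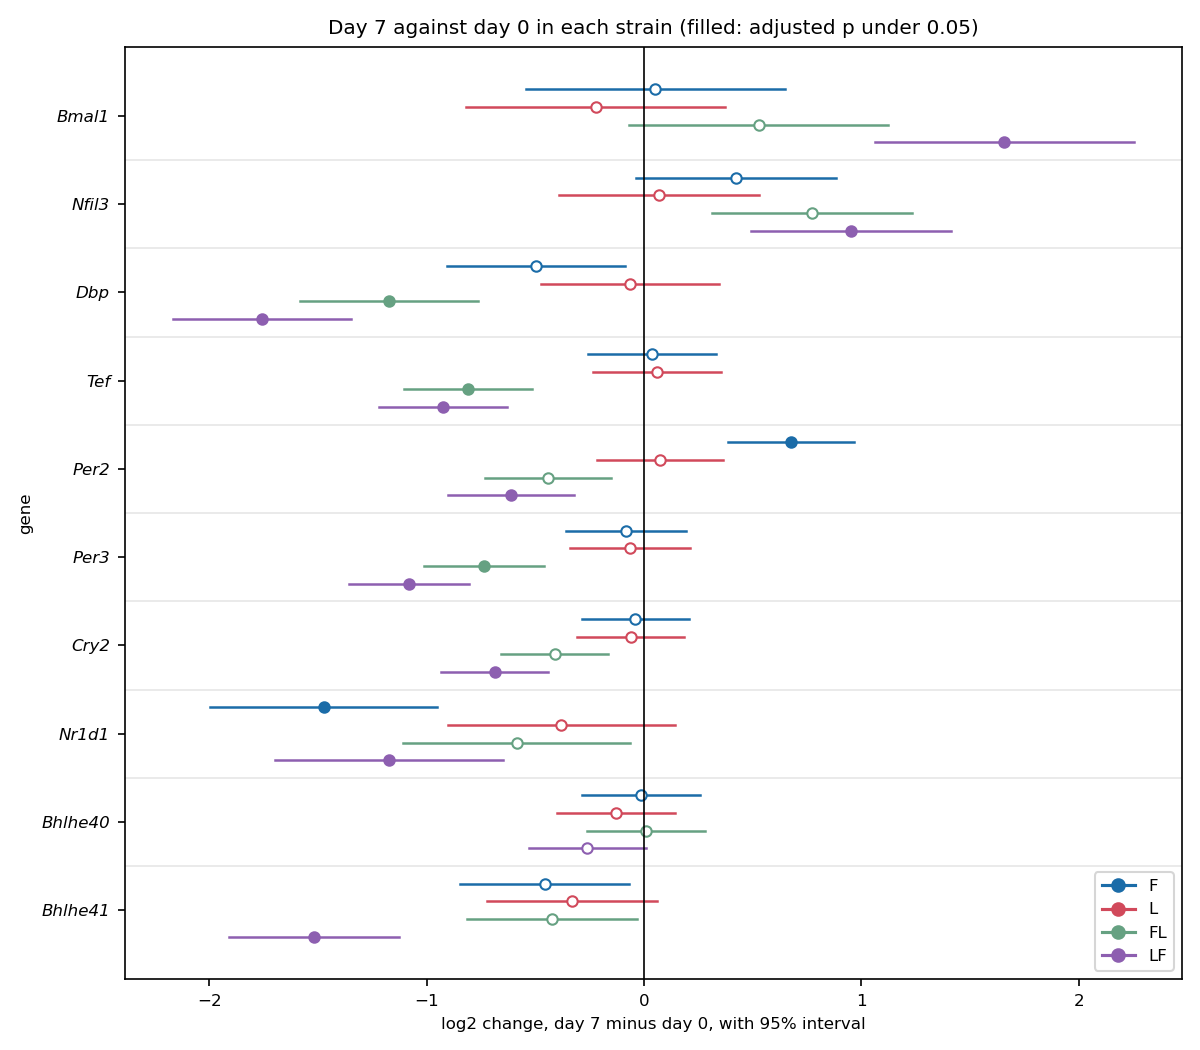
Log2 change of each clock gene from day 0 to day 7 (x axis) in F, L, FL and LF with 95% intervals from limma. Filled points have an adjusted p under 0.05: 9 genes in LF, Dbp, Tef and Per3 in FL, Per2 and Nr1d1 in F, and none in L.

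FL at day 7 moved in part of the loop, through Dbp, Tef and Per3. Dbp read 7.56, 7.60, 7.67 and 7.75 in FL at day 7, against 8.72, 8.73, 8.80 and 9.02 at day 0, and fell by 1.17 ± 0.20 (adjusted p = 0.00171). Tef read 6.95, 7.35, 7.36 and 7.52 against 7.92 to 8.31 at day 0 and fell by 0.81 ± 0.15 (adjusted p = 0.00264). Per3 read 5.62, 5.81, 5.97 and 5.98 against 6.46 to 6.77 and fell by 0.74 ± 0.14 (adjusted p = 0.00365). The groups did not overlap for 5 of the 10 clock genes, these 3 with Nr1d1 and Nfil3, against 3.38% of all probe sets. Cry2 stood at -0.41 ± 0.12 (adjusted p = 0.327), Per2 at -0.44 ± 0.14 (adjusted p = 0.438), Nfil3 at 0.77 ± 0.23 (adjusted p = 0.327) and Bmal1 at 0.53 ± 0.29 (adjusted p = 0.812). Thus 3 of 10 clock genes passed (0.159% of all called), and with only the FL groups in the fit 1 did, since Tef (adjusted p = 0.179) and Per3 (adjusted p = 0.136) no longer passed.

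At day 10 the FL arrays of every clock gene but Nfil3 overlapped those of day 0 (1 of 10 did not overlap, against 1.63% of all probe sets). Nfil3 read 4.73, 4.73, 4.75 and 5.08, above the FL day 0 range of 3.48 to 3.96, and rose by 1.19 ± 0.23, or 2.28-fold (adjusted p = 0.0173). It was the only one of the 10 to pass at day 10 in FL (0.0909% of all called), and the call ended without any 1 of 5 single arrays (adjusted p up to 0.104). Replicate 2 of FL at day 10 read higher than its group for Dbp (8.85 against 7.72 to 8.22), Tef (8.38 against 7.57 to 7.68), Nr1d1 (8.46 against 6.82 to 7.84) and Per3 (6.78 against 5.92 to 6.44). Without that array Nr1d1, at -0.92 ± 0.26 with all arrays (adjusted p = 0.412), passed (adjusted p = 0.0386). Between day 10 and day 7 no clock gene passed in FL (0% of all called), and 6 had an unadjusted p under 0.05.

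In F, Nr1d1 was lower at both days, Per2 was higher at day 7 and Bmal1 was level. The fall of Nr1d1 is not particular to F, since it also fell in LF at day 7. Before any alternative setting was applied, no comparison of responses between strains called Nr1d1 or Bmal1. Nr1d1 read 8.74, 8.85, 8.91 and 8.96 at day 0, then 7.21, 7.32, 7.44 and 7.60 at day 7 and 7.05, 7.26, 7.45 and 7.65 at day 10. The treated arrays lay more than 1 unit under the day 0 arrays. Nr1d1 fell by 1.47 ± 0.26, which is 2.78-fold lower (adjusted p = 0.00142), and by 1.51 ± 0.26 at day 10 (adjusted p = 0.00173). Per2, which binds Cry proteins to close the loop, read 7.01, 7.18, 7.20 and 7.29 at day 7 against 6.39 to 6.58 at day 0. It rose by 0.68 ± 0.14, or 1.60-fold (adjusted p = 0.00809). At day 10 it read 6.74, 6.86, 6.88 and 6.89, between the other groups and overlapping neither, at 0.35 ± 0.14 (adjusted p = 0.407).

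Bmal1 in F changed by 0.05 at day 7 with an interval of -0.54 to 0.65, and by -0.005 at day 10 with an interval of -0.60 to 0.59. These intervals leave out the error of the LF rise, so they do not test F against LF. Compared directly, the responses of LF and F did not differ past the threshold for Bmal1 at either day. With the replicate block or the array spread as covariate Bmal1 passed at both days. With array medians subtracted or a second quantile normalization it passed at day 7. In F, 2 of 10 clock genes passed at day 7 (0.671% of all called) and 1 at day 10 (0.239%), and 0 between day 10 and day 7 (0%; 1 at an unadjusted p under 0.05). Dbp in F stood at -0.49 ± 0.20 (adjusted p = 0.533) and at -0.71 ± 0.20 (adjusted p = 0.157). Bhlhe41 read 3.96 to 4.30 at day 7 and 3.81 to 4.29 at day 10, under the day 0 range of 4.44 to 4.89, with -0.46 ± 0.19 (adjusted p = 0.561) and -0.54 ± 0.19 (adjusted p = 0.297). The F groups did not overlap for 3 of 10 clock genes at day 7 (5.68% of all probe sets) and 4 at day 10 (4.84%). Calb1 of 4 loop and distal markers and Aqp2 of 3 collecting duct markers fell in F at both days. The mean of the distal markers ran from 11.29 to 11.49 at day 0, 10.55 to 11.09 at day 7 and 10.71 to 11 at day 10, and their part was not tested.

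In L no clock gene passed at day 7, at day 10 or between the 2 days, where limma called 0.0114%, 0.0114% and 0% of all probe sets. None of the 10 had an unadjusted p under 0.05 in any of the 3. Dbp in L read 8.36 to 8.81 at day 0, 8.35 to 8.79 at day 7 and 7.60, 8.34, 8.48 and 8.60 at day 10. Its change at day 7 was -0.07 with an interval of -0.47 to 0.34, which leaves out the fall seen in LF. Bmal1 in L stood at -0.22 ± 0.29 and 0.20 ± 0.29 and Nr1d1 at -0.38 ± 0.26 and -0.13 ± 0.26. Replicate 1 of L at day 10 was the lowest of its group for Dbp, Nr1d1, Per3 and Bhlhe41 and the highest for Bmal1 (7.18) and Nfil3 (4.48).

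In the mean of the 4 strains the LF values weigh on the result. At day 7, 8 of 10 clock genes passed (4.94% of all called): Dbp, Nr1d1, Bhlhe41, Per3, Tef and Cry2 fell and Bmal1 and Nfil3 rose. Nfil3 rose by 0.55 ± 0.11 (adjusted p = 0.0019), Bmal1 by 0.50 ± 0.15 (adjusted p = 0.0375), and Bhlhe41 fell by 0.68 ± 0.10 (adjusted p = 9.08e-06). At day 10, 6 passed (2.41%), with Tef at -0.24 ± 0.07 (adjusted p = 0.0674) and Cry2 at -0.19 ± 0.06 (adjusted p = 0.102) no longer among them. Between day 10 and day 7 none passed (0.114% of all called; 2 at an unadjusted p under 0.05). The Bmal1 calls ended without any 1 of 14 arrays at either day (adjusted p up to 0.064 and 0.073). Per2 stood at -0.08 ± 0.07 and -0.04 ± 0.07, with the rise in F and the fall in LF averaged together. Markers fell in the same mean at day 7: 2 of 4 of the proximal tubule (Slc5a2, Lrp2), 3 of 4 of loop and distal tubule (Umod, Slc12a1, Calb1), 2 of 3 of the collecting duct (Scnn1g, Aqp2), 1 of 3 of podocytes (Podxl), 2 of 2 of endothelium (Plvap, Emcn) and 1 of 2 of white blood cells (Adgre1). Calb1 stood at -0.89 ± 0.12 (adjusted p = 6.17e-06). At day 10 Slc12a1, Calb1, Scnn1g and Aqp2 fell. Their part in the clock gene changes was not tested.

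With LF left out, which was added after its day 0 values were seen, the mean of F, L and FL held fewer changes. At day 7, 2 clock genes passed (0.83% of all called): Dbp fell by 0.58 ± 0.12 (adjusted p = 0.00592) and Nr1d1 by 0.81 ± 0.15 (adjusted p = 0.00151). At day 10, 3 passed (1%): Dbp and Nr1d1 fell by 0.57 ± 0.12 and 0.85 ± 0.15, and Nfil3 rose by 0.51 ± 0.13 (adjusted p = 0.0395), a call that ended without any 1 of 15 arrays. Bmal1 stood at 0.12 ± 0.17 (adjusted p = 0.835) and 0.22 ± 0.17 (adjusted p = 0.875). Of the cell type markers, Calb1 and Aqp2 fell in this mean at both days. Nr1d1 had nearly the same size in this mean as in that of the 4 strains (-0.90 ± 0.13 at day 7), and Bmal1 did not.

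Whether strains responded differently was tested by the strain by day interaction, a moderated F test with 6 degrees of freedom. The test uses the day 0 arrays, so for LF it is not independent of the day 0 differences given above. It called 17 probe sets (0.193%), and 4 of them were clock genes: Per2 (F = 10.08, adjusted p = 0.00273), Per3 (F = 7.54, adjusted p = 0.0185), Dbp (F = 7.49, adjusted p = 0.0185) and Tef (F = 7.06, adjusted p = 0.023). Per2 ranked 3 among all probe sets by this test. Cry2, Bhlhe41, Bmal1 and Nfil3 ranked 23, 28, 54 and 77 without passing, Nr1d1 ranked 156, and Bhlhe40 ranked 5127. Without replicate 2 of LF at day 0, only Per2 passed. The call also ended for Dbp without 1 other array, for Per3 without 2 others and for Tef without 3 others. Dbp did not pass under a second quantile normalization (F = 5.10, adjusted p = 0.095). Cry2 and Bmal1 passed with the replicate block, array medians subtracted, a second quantile normalization, the array spread as covariate or array weights.

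Pairs of strains were then compared in their day 7 response. Responses of LF contain its day 0 arrays, and LF against L called no clock gene at day 7 or day 10, as given below. The response of LF differed from that of L by -1.69 ± 0.29 for Dbp (adjusted p = 0.00291), -1.02 ± 0.19 for Per3 (adjusted p = 0.0143) and -0.98 ± 0.21 for Tef (adjusted p = 0.0454). These were 3 of 10 clock genes and 3 of the 5 probe sets called (0.0568%), the others being Ndrg1, a stress-responsive gene, and Ccnd1, the cyclin of early cell cycle. LF differed from F by -1.29 ± 0.20 for Per2 (adjusted p = 0.000689) and -1.0 ± 0.19 for Per3 (adjusted p = 0.0147), 2 of 10 clock genes (0.0568% called). FL differed from F by -1.12 ± 0.20 for Per2 (adjusted p = 0.00682), 1 of 10 (0.0568%). Per2 thus went up in F while it stood lower in FL and fell in LF, and this difference passed for both pairs. The Tef call against L ended without any 1 of 25 arrays (adjusted p up to 0.134). The LF against L count was 1 without LF day 0 replicate 1 or without L day 7 replicate 3, and 5 without L day 10 replicate 1. The LF against F count was 1 without LF day 0 replicate 2, F day 0 replicate 1 or F day 7 replicate 3, and 4 without FL day 10 replicate 2, L day 10 replicate 1 or F day 7 replicate 4.

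No clock gene passed between F and L (0% of all called; 2 with an unadjusted p under 0.05), FL and L (0%; 6) or FL and LF (0.114%; 3) in the day 7 response. Bmal1 differed by -1.13 between the responses of FL and LF, with an interval of -1.97 to -0.29 for the single gene (adjusted p = 0.621). For the day 10 response limma called no clock gene in any of the 6 pairs. The shares of all probe sets called were 0% for F and L, FL and F, and FL and L, with 3, 0 and 2 clock genes at an unadjusted p under 0.05. They were 0.0227% for LF and L and for LF and F and 0.0114% for FL and LF, with 8, 7 and 6 clock genes at an unadjusted p under 0.05.

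**Figure D4:**
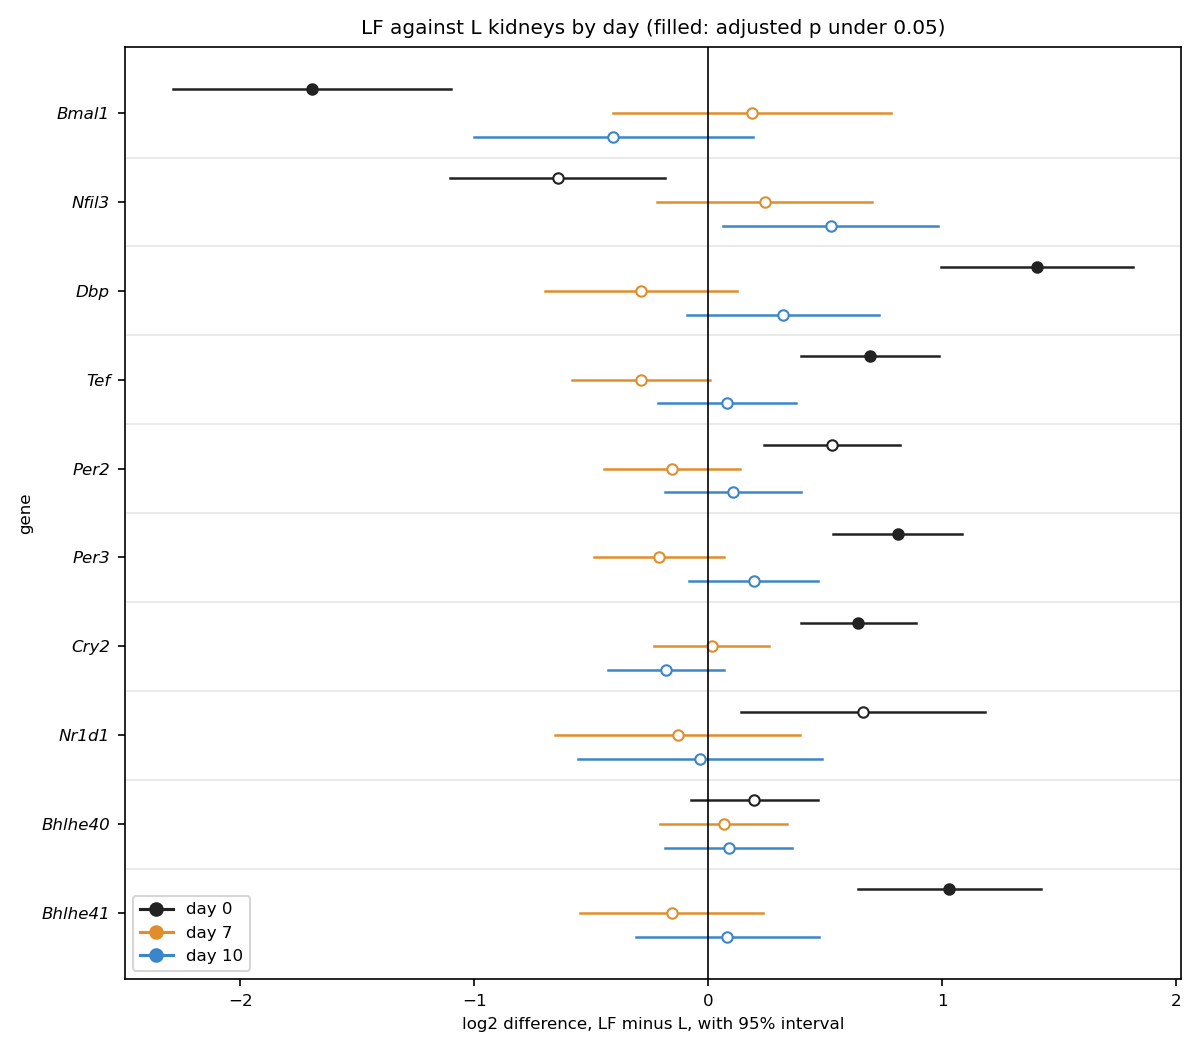
Log2 difference between LF and L kidneys (x axis) for each clock gene at day 0, 7 and 10, with 95% intervals from limma. The 6 filled points (adjusted p under 0.05) are all at day 0, and the day 7 and day 10 intervals of most genes span 0.

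The strain pairs at day 7 and day 10, added after the day 0 values of LF were seen, followed LF onward. No clock gene passed in LF against L at day 7 (0.136% of all called; 0 clock genes at an unadjusted p under 0.05) or day 10 (0.318%; 1), nor against F at day 7 (2.16%; 2). For Dbp, LF against L was -0.29 with an interval of -0.70 to 0.12 at day 7, against 1.41 at day 0. For Bmal1 it was 0.19 with an interval of -0.41 to 0.78, against -1.69. At day 10, 2 clock genes passed in LF against F (4.23%): Nr1d1 at 0.95 ± 0.26 (adjusted p = 0.0252) and Per3 at 0.53 ± 0.14 (adjusted p = 0.0158). That count was 0 without LF day 10 replicate 3 or F day 10 replicate 4.

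At day 7 it was FL that stood low. Against L, 5 of 10 clock genes passed (1.93% of all called): Dbp at -0.89 ± 0.20 (adjusted p = 0.00818), Per3 at -0.82 ± 0.14 (adjusted p = 0.000109), Tef at -0.73 ± 0.15, Per2 at -0.58 ± 0.14 and Cry2 at -0.57 ± 0.12. Without L day 7 replicate 3 that count was 3. Slc5a2 of the proximal tubule was higher and Aqp3 of the collecting duct lower in FL than in L and in LF at day 7. Against F, 3 passed (0.659%), Per2 at -0.82 ± 0.14 (adjusted p = 0.00139), Tef at -0.60 ± 0.15 and Per3 at -0.56 ± 0.14, and 1 without any of 6 single arrays of these groups (FL day 7 replicates 2, 3 and 4, F day 7 replicates 1, 2 and 3). Against LF, 2 passed (2.46%), Cry2 at -0.59 ± 0.12 (adjusted p = 0.00233) and Per3 at -0.61 ± 0.14 (adjusted p = 0.00523). No clock gene passed between F and L at day 7 (2.14% called; 1 at an unadjusted p under 0.05).

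At day 10, F and L differed in 2 clock genes (3.86% of all called), Nr1d1 at -0.99 ± 0.26 (adjusted p = 0.0216) and Nfil3 at 0.79 ± 0.23 (adjusted p = 0.0407). That count was 0 without F day 10 replicate 4 or L day 10 replicate 3 or 4, so it rests on single arrays. Calb1, Podxl, Emcn and Adgre1, markers of distal tubule, podocytes, endothelium and white blood cells, were lower in F in the same comparison. The white blood cell pair ran from 5.18 to 5.92 in F and 5.97 to 6.45 in L, and the part of these markers was not tested. No clock gene passed between FL and F (0.0227% called; 1 at an unadjusted p under 0.05), LF (2.49%; 3) or L (1.59%; 4). Without FL day 10 replicate 2, FL differed in 2 clock genes from L and in 2 from LF, Nr1d1 among them in both.

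Bhlhe40, the close relative of Bhlhe41 and likewise a repressor at E-boxes, passed no test among these comparisons. Its group means lay between 9.06 (FL at day 0) and 9.49 (LF at day 0), and its 48 arrays between 8.76 and 9.65. The LF day 0 arrays read 9.34, 9.37, 9.59 and 9.65, above the FL day 0 arrays (8.89, 8.96, 9.17 and 9.22). FL against LF stood at -0.43 ± 0.13 (adjusted p = 0.0716) at day 0 and passed with the replicate block (adjusted p = 0.0387), with array weights (0.0196) and without FL day 10 replicate 4 (0.0429). In LF its change was -0.26 ± 0.13 at day 7 (adjusted p = 0.284) and -0.06 ± 0.13 at day 10. Bhlhe41 thus changed by 1 unit or more in LF while the interval of Bhlhe40 in LF at day 7 ran from -0.53 to 0.01.

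The order of the group means differed between genes. Bmal1 was lowest in LF at day 0 (4.83 ± 0.26, SD, n = 4), and the other 11 group means lay between 6.22 (FL at day 0) and 6.75 (FL at day 7), with neighbours that overlap. Dbp was highest in LF at day 0 (10.0 ± 0.16), next in FL at day 0 (8.82 ± 0.14) and lowest in FL at day 7 (7.64 ± 0.08). Nr1d1 was highest in LF at day 0 (9.13 ± 0.37) and F at day 0 (8.87 ± 0.09), which overlap, and lowest in F at day 10 (7.35 ± 0.26) and F at day 7 (7.39 ± 0.17), which overlap. Per2 was highest in LF at day 0 (7.38 ± 0.12) and F at day 7 (7.17 ± 0.12) and lowest in FL at day 7 (6.35 ± 0.34) and F at day 0 (6.49 ± 0.09). Nfil3 was highest in F at day 10 (4.85 ± 0.37) and FL at day 10 (4.82 ± 0.17) and lowest in FL and LF at day 0 (3.63 ± 0.22 and 3.68 ± 0.25).

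Clock genes also varied together between arrays of the same group, where strain and day are constant. Over 48 arrays as deviations from their group means, 16 of 45 pairs passed a permutation test of Pearson's r within groups (100000 permutations, two-sided, adjusted over the 45 pairs), of which 15 were positive. Dbp and Nr1d1 varied most closely, with r = 0.821 and rho = 0.806 (permutation p = 1e-05 for both, the smallest these permutations can give; adjusted p = 0.00045), and r = 0.741 without the 2 arrays farthest from the median of Dbp. Dbp with Per3 gave r = 0.702 and rho = 0.596 (permutation p = 3e-05 and 0.00015, adjusted p = 0.000675 and 0.00171) and 0.627 without the 2 arrays. Tef with Per3 gave r = 0.636 and rho = 0.618 (permutation p = 0.0001 and 9e-05, adjusted p = 0.00112 and 0.00171) and 0.586 without the 2 arrays. Tef with Nr1d1 did not pass (r = 0.254 and rho = 0.173, permutation p = 0.239 and 0.308, adjusted p = 0.347 and 0.42, 0.0792 without the 2 arrays), and Dbp with Tef passed by r (0.431, adjusted permutation p = 0.0447) and not by rho (0.346, adjusted permutation p = 0.0736).

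Dbp and Bmal1 were the only pair to pass with a negative sign, at r = -0.507 and rho = -0.493 (permutation p = 0.00864 and 0.0036, adjusted p = 0.0278 and 0.0147), and -0.519 without the 2 arrays farthest from the median of Dbp. That r was -0.389 with the replicate block and -0.294 without replicate 1. Bmal1 and Nfil3, which Nr1d1 represses in common, varied together at r = 0.537 and rho = 0.573 (permutation p = 0.00066 and 0.00035, adjusted p = 0.0045 and 0.00262), and 0.552 without the 2 arrays. This r was 0.283 with the replicate block and 0.368 without replicate 1. Cry2 with Bmal1 gave r = 0.614 and rho = 0.616 (permutation p = 0.0007 and 0.00019, adjusted p = 0.0045 and 0.00171) and 0.606 without the 2 arrays. For this pair r was 0.27 with the replicate block and 0.39 without replicate 4. The permutations treat the arrays of a group as interchangeable, although same-numbered arrays were more alike on average.

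The deviations of some clock genes moved with a measure of the whole array, the array spread, described above. What sets the array spread was not tested. Across the 48 arrays r with the spread was 0.798 for Bmal1, 0.798 for Cry2, 0.591 for Per2, 0.57 for Bhlhe40 and 0.564 for Tef, and -0.058 for Dbp and -0.078 for Nr1d1. Of all probe sets, 16.4% had an r with the spread at least as large in size as Bmal1. With the spread removed, a setting added after the correlations were seen, Dbp with Nr1d1 stayed at 0.82 and Dbp with Bmal1 went to -0.77. With it removed, Per3 with Bmal1 (-0.74), Nr1d1 with Bmal1 (-0.58) and Tef with Bmal1 (-0.48) were negative too, and Cry2 with Bmal1 was -0.06. With the spread removed 19 pairs passed, 11 positive and 8 negative, and 11 of the 16 pairs that passed without this step were among them. The 5 that were lost all hold Cry2 or Bhlhe40: Cry2 with Bmal1, Tef with Cry2 (0.508 to 0.117), Per2 with Cry2 (0.538 to 0.137), Bhlhe40 with Cry2 (0.489 to 0.069) and Bhlhe40 with Bmal1 (0.469 to 0.0282).

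**Figure D5:**
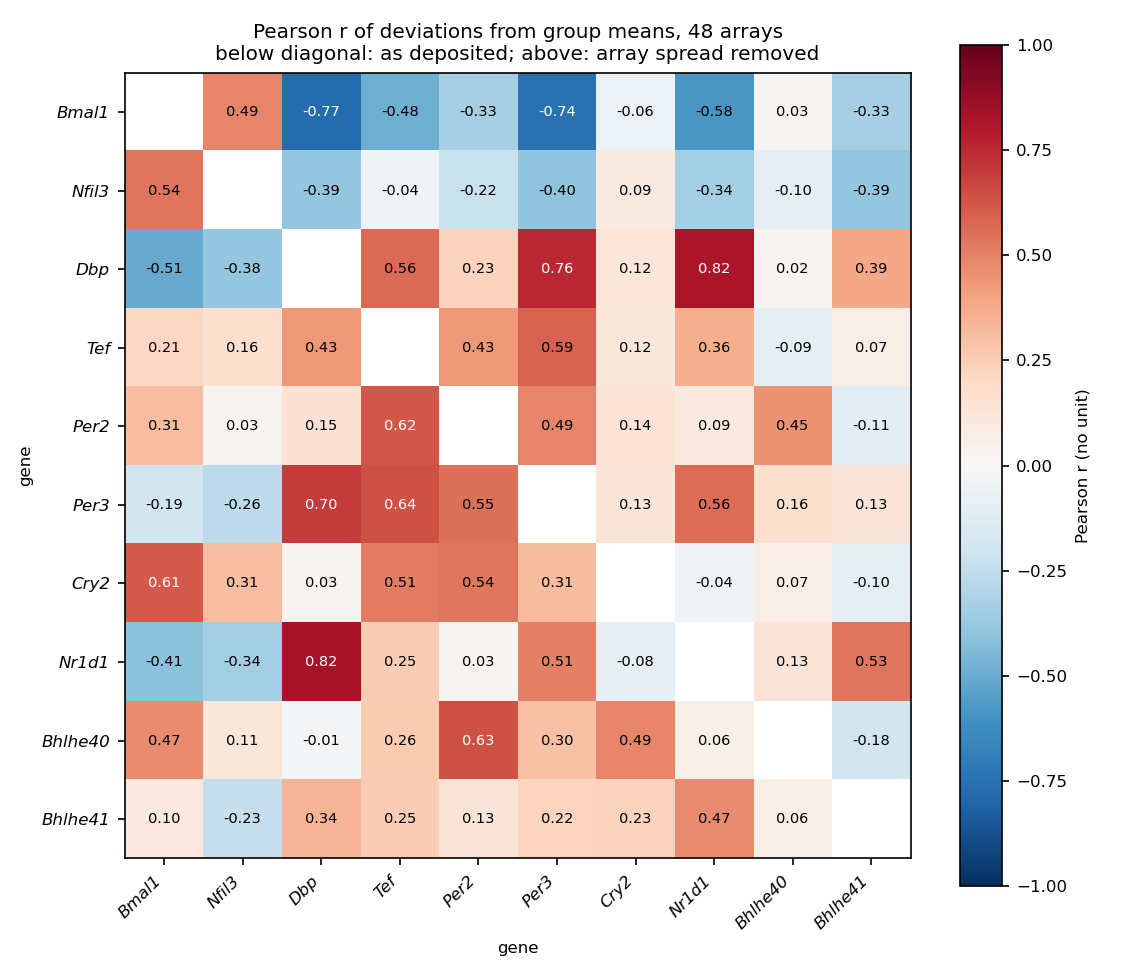
Pearson r between clock genes over 48 arrays, as deviations from group means, as deposited below the diagonal and with the array spread removed above it (both axes are genes, colour and number are r). Dbp with Nr1d1 stands at 0.82 in both, and Bmal1 is negative against Dbp, Per3 and Nr1d1 in both, with larger sizes above the diagonal.

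Of 18 other clock genes looked up, 6 were measured (Clock, Cry1, Timeless, Csnk1d, Csnk1e and Btrc). Cry1, the other cryptochrome, rose in the mean of the strains by 0.34 ± 0.10 at day 7 (adjusted p = 0.0483) and by 0.38 ± 0.10 at day 10 (adjusted p = 0.0312), 1 of 6 at each day, where 4.94% and 2.41% of all probe sets were called. Clock, the partner of Bmal1, stood at -0.08 ± 0.07 at day 7 (adjusted p = 0.528), and in LF at 0.12 ± 0.14. None of the 6 passed in LF at either day or between LF and another strain at day 0. The median change of the 6 in LF at day 7 was 0.06, that of the 10 clock genes -0.80, and that of all probe sets -0.06.

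Genes known to follow the clock in kidney or liver numbered 24 measured of 28. In LF at day 7, 4 of 24 passed (2.26% of all called): Tspan4 fell by 0.62 ± 0.13 (adjusted p = 0.00605) and Wee1, a brake on mitosis with E-boxes under Bmal1, fell by 0.60 ± 0.16 (adjusted p = 0.0322). Cdkn1a, an inhibitor of the cell cycle, rose by 1.2 ± 0.29 (adjusted p = 0.0178) and Pdk4, which spares glucose, by 1.21 ± 0.33 (adjusted p = 0.0386). At day 0, Wee1 (0.73 ± 0.16, adjusted p = 0.00492), Tspan4 (0.53 ± 0.13, adjusted p = 0.0196) and Usp2 (0.91 ± 0.22, adjusted p = 0.0143) were higher in LF than in F, 3 of 24 (2.11% of all called). Wee1 and Tspan4 were also higher in LF than in FL, with FL against LF at -0.77 ± 0.16 (adjusted p = 0.00253) and -0.63 ± 0.13 (adjusted p = 0.00274). Sgk1 went the other way, with FL against LF at 1.07 ± 0.27 (adjusted p = 0.0174). These were 3 of 24 (3.07% of all called). None of the 24 passed in LF against L at day 0. Averaged over the strains, 6 of 24 passed at day 7 (4.94% of all called): Cdkn1a, Pdk4 and Gadd45a rose, and Aqp2, Avpr2 and Slc6a6 fell. Aqp2, the water channel of the collecting duct, fell by 0.52 ± 0.08 at day 7 (adjusted p = 5.4e-05) and by 0.61 ± 0.08 at day 10 (adjusted p = 2.84e-06). The collecting duct marker Scnn1g fell with it, by 0.35 ± 0.08 at day 7 (adjusted p = 0.00501).

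Glucocorticoids also reset the clock of the kidney, so 11 measured genes of that response and of stress were set beside the clock genes. In the mean of the strains Atf3 and Pdk4 rose at day 7 (4.94% of all called). At day 10 Atf3, Pdk4 and Fkbp5 rose (2.41%), Fkbp5 by 0.72 ± 0.19 (adjusted p = 0.0308). None of the 11 passed in F, L or FL alone at either day. Atf3 and Pdk4 were lower in FL than in F at day 7 (0.659%). In LF at day 7 only Pdk4 of the 11 rose (2.26% of all called), and at day 10 2 did (0.887%): Sgk1, which promotes sodium uptake, rose by 1.19 ± 0.27 (adjusted p = 0.0144) and the stress factor Atf3 by 0.89 ± 0.22 (adjusted p = 0.0276). At day 0, none of the 11 passed in LF against L, Nr4a1 was lower in LF than in F (-0.65 ± 0.18, adjusted p = 0.0475) and Sgk1 was higher in FL than in LF (1.07 ± 0.27, adjusted p = 0.0174). Their part in the clock gene differences was not tested.

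Named genes whose level ran most like that of Bmal1 over the 48 arrays were Gpam, of triglyceride synthesis (r = 0.821), Dhcr7, of cholesterol synthesis (0.733), Smad1 (0.711), Ppard (0.702) and Ndrg1 (0.687). The most opposite were Dbp (-0.79), Per3 (-0.673), Ptprq (-0.601), Bhlhe41 (-0.575) and Hoxa2 (-0.549). For Dbp the nearest were 4 of the other clock genes, Per3 (0.905), Tef (0.818), Bhlhe41 (0.812) and Nr1d1 (0.794), followed by the kinase Sik1 (0.743). The most opposite to Dbp were Bmal1 (-0.79), Ndrg1 (-0.702), Ppard (-0.642), Nfil3 (-0.611) and Ccn3 (-0.596). Within groups the gene most opposite to Dbp was Cry1 (-0.562), and Bmal1 itself ran with Gpam (0.897) and Dhcr7 (0.849). These correlations describe 48 arrays that share group differences, and the array spread in the case of Bmal1, and carry no test.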

How the data were processed

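Kidney RNA of 48 arrays in 12 groups of 4 was analysed from the deposited log2 signal per probe set, which the authors obtained with RMA, per the submitters' processing notes, which also name limma. The values ran from 1.04 to 14.02. Genes were named through the platform annotation: of 8797 probe sets, 7603 had 1 symbol, 409 several and 785 none. The 10 clock genes and all gene lists were chosen with earlier results of these data known. The genes named in the text are the 10 members, called genes of the lists, other probe sets called in comparisons with few calls, and the 5 named genes most and least like Bmal1 and Dbp.

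All 48 arrays entered a fit with a mean for each group in limma 3.58.1 (R 4.3.3) and eBayes, with 36 residual and 3.689 prior degrees of freedom, 47 contrasts and an F test for strain by day. Of the contrasts, strain pairs at day 7 and day 10 and the mean of F, L and FL were added after the data were seen. Adjusted p-values are Benjamini and Hochberg over all probe sets, and intervals are 95%. The fit was tested on simulated data. Alternatives were a replicate block, array medians subtracted, a second quantile normalization, the dimmest probe sets left out (6598 kept), the array spread as covariate, array weights, a trended robust eBayes, only the compared groups, the mean over the probe sets of a gene, and leaving out each array or replicate number. The 12 arrays of a replicate number share a prefix in their names, whose meaning is not stated. Deviations of same-numbered arrays correlated at 0.0942 on average (40.9% of pairs over 0.1) and those of other arrays at -0.0314 (18.9%), and 26 of 48 arrays were closest to their own number. Same-numbered arrays were thus more alike on average. The block was kept as an alternative because the meaning of the prefix is not stated, and the counts it changes are given below. Promoter motifs were searched and correlations computed in Python 3.11.15.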

Additional observations from a re-analysis of the deposited data

Results flagged for a closer look

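Of 120 sets of 4 arrays (10 genes in 12 groups), 6 held an array far from the other 3, and chance gives about 5% of sets. Nfil3 read 5.08 on replicate 1 of FL at day 10, against 4.73 to 4.75 on the others. Nr1d1 read 7.34 on replicate 1 of L at day 10, against 8.57 to 8.77, and Per3 read 6.36 on the same array, against 6.65 to 6.69. Per3 read 6.67 on replicate 4 of LF at day 7, where the others read 6.39 each. Tef read 8.11 on replicate 4 of F at day 0, against 7.76 to 7.80, and 8.38 on replicate 2 of FL at day 10, against 7.57 to 7.68.

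The day 7 response differed between strains by limma for 6 pairings of gene and strains. Per2 differed by -1.12 between FL and F and by -1.29 between LF and F. Between LF and L, Dbp differed by -1.69, Tef by -0.98 and Per3 by -1.02. Per3 differed by -1.0 between LF and F. The test of strain by day gave F = 10.08 for Per2, 7.54 for Per3, 7.49 for Dbp and 7.06 for Tef.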

How the results depend on the processing

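The numbers below count called clock genes of 10 by limma. No called clock gene changed sign when any 1 of the 48 arrays was left out, and the counts of the strain means, LF against carrier, and LF against F or FL at day 0 stayed within 1.5 times under all 9 other settings. With the replicate block, the day 7 response counts were 6 for LF against L and 6 for LF against F, and at day 10 the response of LF differed in 1 from L, F and FL each. The block gave 1 for FL against LF and 2 for FL against L at day 10, 4 for the mean of F, L and FL at day 7 and 7 for strain by day. With array medians subtracted, the response counts were 5 (LF and L), 4 (LF and F) and 1 (FL and L) at day 7 and 1, 2 and 1 for LF with L, F and FL at day 10. Strain pairs then gave 4 for FL and LF at day 7, and at day 10 1 for F and L, 1 for FL and L and 0 for LF and F. A second quantile normalization gave 5 (LF and L), 5 (LF and F) and 1 (FL and L) for the day 7 response, 1, 2 and 1 at day 10, and 2 for F at day 10. Its strain pairs gave 1 (FL and F), 4 (FL and LF) and 1 (LF and F) at day 7, and 1 (F and L), 1 (FL and L) and 0 (LF and F) at day 10. The array spread as covariate gave 5, 6, 1 and 1 for the day 7 response of LF with L, LF with F, FL with LF and FL with L, and 2, 3 and 1 for LF with L, F and FL at day 10. It gave 1, 4 and 1 for FL and F, FL and LF, and LF and F at day 7, 1 for FL with LF and with L at day 10, and 4 for the mean of F, L and FL at day 7. Array weights gave 1 for FL and L at day 0, 2 for the day 7 response of FL and F and 6 for that of LF and F. They gave 1 for the day 10 response of LF with L, F and FL each, 1 for FL and LF and 2 for FL and L at day 10, and 4 for the mean of F, L and FL at day 7. Without the dimmest probe sets, the day 10 response of LF and L and the pair FL and LF at day 10 gave 1 each. With only the compared groups, counts were 1 for FL at day 7, 3 for LF and L at day 0, and 0, 1, 1 and 1 for the day 7 response of FL with F, LF with L, FL with L and LF with F. That setting gave 1 for the day 10 response of LF with L and with F, 0, 0 and 2 for FL with F, LF and L at day 7, 0 and 1 for F with L and LF with F at day 10, and 4 for the mean of F, L and FL at day 7. Fewer arrays enter that fit, and for the other settings the cause was not tested.

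Leaving out 1 array or 1 replicate number gave these ranges of the count. It was 0 to 1 for F at day 10, the response of FL against F at day 7, the response of FL against LF at day 7 and the response of LF against L at day 10. It was 0 to 2 for F at day 7, FL at day 10, the response of FL against LF at day 10, FL against LF at day 10 and FL against L at day 10. It was 0 to 3 for FL against F at day 7, F against L at day 10 and LF against F at day 10. It was 0 to 4 for the response of LF against F at day 7. It was 0 to 5 for the response of LF against L at day 7, FL against L at day 7 and strain by day. It was 1 to 3 for FL at day 7, FL against LF at day 7, the mean of F, L and FL at day 7 and the mean of F, L and FL at day 10. It was 2 to 6 for LF against L at day 0. It was 3 to 8 for LF at day 10. It was 4 to 8 for FL against LF at day 0. It was 5 to 9 for LF at day 7. The count of correlated pairs was 8 to 11 without 1 replicate number. Under a second quantile normalization r was -0.042 for Bhlhe40 with Bmal1 and -0.031 for Cry2 with Bmal1, and it was -0.062 for Cry2 with Bmal1 with the array spread removed.

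The kidneys' hour of collection and the make-up of each array are not given in the sources used here. Groups of 4 arrays limit what can be called: for single strains the standard error of a change was 0.12 (Cry2) to 0.29 (Bmal1).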
